A study of Mus musculus with 6 samples.

Results

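The levels of 10 genes for Z-disc proteins were examined by RNA-seq, out of 55421 genes in the deposited table, 28405 of them with any counts. The genes were taken by symbol and were Actn2, Pdlim3, Pdlim5, Ldb3, Nexn, Myot, Myoz1, Myoz2, Tcap and Csrp3. They were chosen by name with the fold changes of this same comparison already known, so their values and calls are given as a description and no p-value is given for them. The cells were DM1 myoblasts, a model of myotonic dystrophy type 1 made from the mouse myoblast line C2C12, whose cells fuse to myotubes once serum is reduced. They were stably transfected with a GFP gene that carries 200 CUG repeats in its transcript. The control group carried the empty vector in addition, the miR-322/-503 group a vector that expresses the microRNAs miR-322 and miR-503, and both were collected on day 4 of differentiation with 3 libraries in each group. Each group was 1 stably selected line, so the effect of the microRNAs and a difference between the lines cannot be told apart. The study's methods describe replicates as biological in general, but no label ties a library to a separate culture, so the spread given below is that between these libraries.

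The Z-disc is the protein lattice at each end of the sarcomere in which actin filaments of neighbouring sarcomeres are crosslinked by alpha-actinin. PDZ-LIM scaffolds, calsarcins, myotilin and nexilin dock onto this lattice, and telethonin caps the end of titin there. Differentiating muscle cells assemble the Z-disc from precursor bodies after myoblasts stop dividing, and many of its genes belong to the late program of muscle differentiation.

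The 10 myotube markers examined, such as Acta1, Ttn and Chrna1, all had counts. Their levels are given in TPM, which corrects for transcript length and is scaled to the same total in each library. The markers summed to between 3021 and 3348 TPM in the control and between 3875 and 4033 TPM in the miR-322/-503 group. Myh8 was under 1 TPM in each library. Of these 10 myotube markers, 6 were called higher with the test described below, which called 13.2% of all tested genes higher and 15.5% lower. While 7 had a log2 fold change above 0, Mymk at -0.41 ± 0.15, Myh8 at -1.09 ± 0.36 and Myh3 at -0.052 ± 0.095 were negative without a call. These were named after their values were seen, and Mymk and Myh8 did not overlap between the groups. The 5 smooth muscle markers summed to between 6577 and 6837 TPM in the control against 2795 to 2927 TPM with miR-322/-503, and the 5 cycling cell markers to between 458 and 482 TPM against 346 to 372 TPM. Of the smooth muscle markers 3 were called lower, of the cycling cell markers 4, and none of either list higher. The 5 fibroblast markers lay between 4310 and 4596 TPM against 3073 to 3314 TPM, with 3 of the 4 tested called lower and 1 higher, Col1a1 at 0.53 ± 0.054 on the log2 scale, named after its values were seen. The 6 cardiomyocyte markers summed to at most 4.80 TPM in any library and the 4 endothelial markers to 2.35 TPM. The 4 macrophage markers summed to at most 6.49 TPM and the 5 adipocyte markers to 8.95 TPM. Of the 4 tested cardiomyocyte markers 1 was called higher and 1 lower, and the 1 tested endothelial marker was called higher. No macrophage or adipocyte marker was called. The defining markers Adipoq, Cfd, Fabp4 and Adgre1 were at 0 in all 6 libraries. The sums of all these lists but the adipocyte and macrophage ones differed between the groups without overlap, and their part in the results below was not tested. The mitochondrial share of the counts was between 5.21% and 7.14% in the control and between 7.39% and 9.72% with miR-322/-503, and its part was not tested either. All libraries came from lines made from C2C12, so a list's name does not mean that cells of that type were in the culture. In bulk RNA, fewer cells in a given state and less RNA per cell cannot be told apart. The libraries held between 73532084 and 92157388 estimated counts, where about 4 counts stood for 1 read pair. The precursor loci of the microRNAs had at most 17 estimated counts in any library, and the mature microRNAs were not measured by these libraries.

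The overexpressed microRNAs are shown first because their seed, bases 2 to 8 printed in capitals, is the part that pairs with target transcripts. Both mature sequences are from RefSeq (GRCm38.p6).
miR-322-5p, chrX:53054306-53054327, minus strand: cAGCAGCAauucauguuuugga
miR-503-5p, chrX:53054027-53054049, minus strand: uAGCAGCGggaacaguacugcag
Both seeds begin with the same 6 bases, AGCAGC, and differ only at the last base. The longest annotated 3′UTR of each of the 10 genes was searched for the reverse complement of these seeds. The 7 bases TGCTGCT, which pair with the miR-322-5p seed, were present in 1 of 10 genes, Pdlim5, against 24.4% of the 13416 tested genes that have a 3′UTR of at least 50 bases. The 7 bases CGCTGCT of miR-503-5p were in 0 of 10 genes, against 4.87%. With the 6 bases GCTGCT that both share, 4 of 10 genes had a match, which were Pdlim5, Ldb3, Myoz2 and Tcap, against 45.2% of all. The Pdlim5 match and the Myoz2 match are printed with the matched bases in capitals, as examples of a long and a short match.
Pdlim5 site, matched bases chr3:142240946-142240952, minus strand: taggtctttgTGCTGCTgcagtgatca
Myoz2 site, matched bases chr3:123006336-123006341, minus strand: gcacatagaaGCTGCTgttggtctgc
Pdlim5 and Myoz2 had higher counts in the miR-322/-503 group, and these letters say nothing of whether either site is used. The 3′UTRs of 8 of the 10 genes, from 68 bases in Actn2 to 672 bases in Nexn, were shorter than the median of 1174 bases of all tested genes, while Pdlim5 with 3090 and Ldb3 with 2857 bases were longer. These shares were not matched for length.

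Of the 10 Z-disc protein genes, 6 were called higher and 0 lower in the miR-322/-503 group with edgeR's quasi-likelihood test at an adjusted p under 0.05. The genes called higher were Pdlim3, Myoz2, Myoz1, Actn2, Ldb3 and Pdlim5. Among all 18140 genes tested, 13.2% were called higher and 15.5% lower. At an unadjusted p under 0.05 the count of lower genes was 1, Tcap, and DESeq2 called 0 lower. With a log2 fold change past 1 as a further condition, 3 of the 10 were higher (4.59% of all genes) and none was lower (5.29%). The CPM (counts scaled to the TMM-normalized size of each library) of the groups did not overlap in 7 of 10 genes, against 45.1% of all genes. The median log2 fold change was 0.24 over the 10 genes and -0.0066 over all tested genes. Since the genes were picked with this comparison in view, these counts describe them and are not evidence about Z-disc genes as a class. The plot of CPM by library shows all values on which these statements rest.

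**Figure D1:**
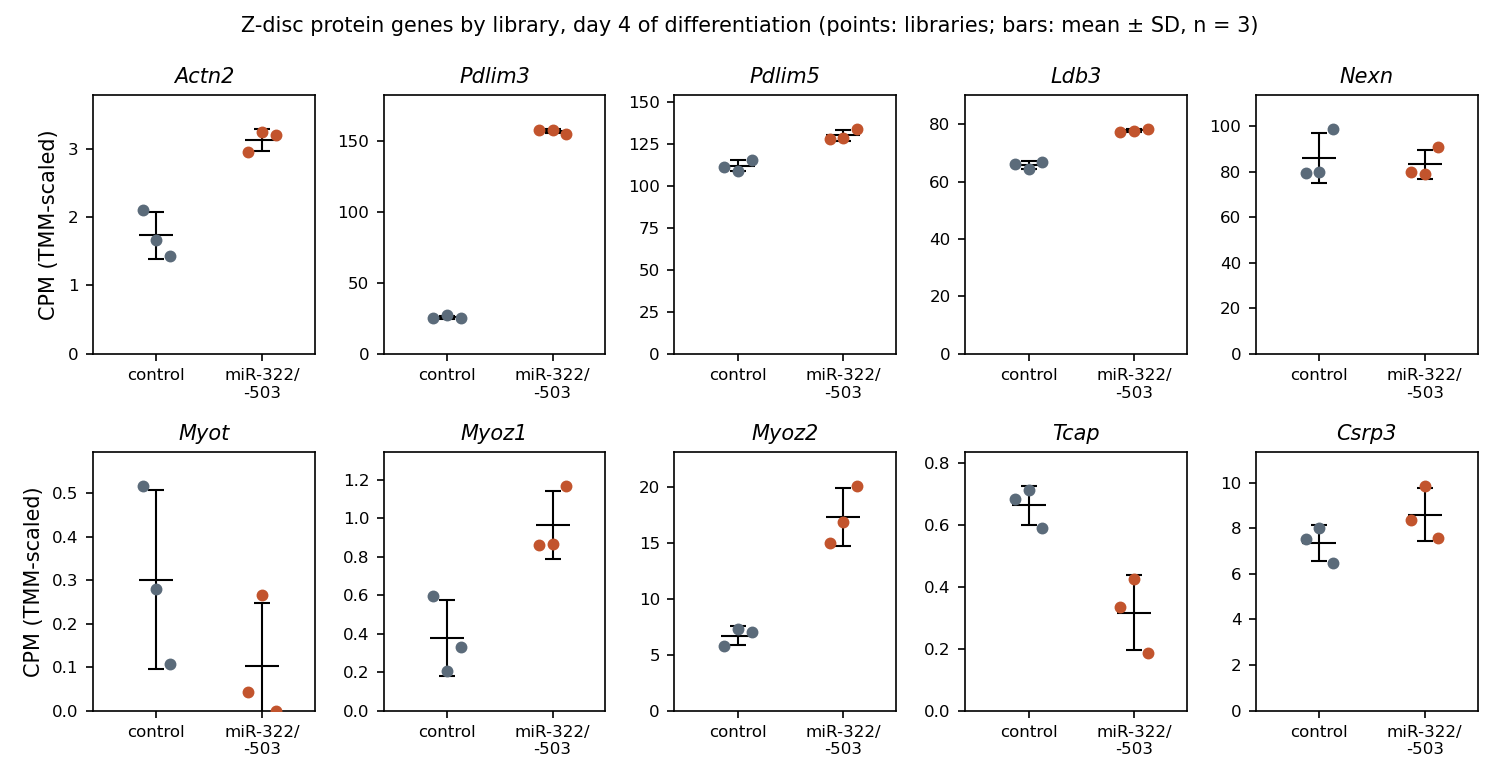
CPM (TMM-scaled) of each Z-disc protein gene in 3 control and 3 miR-322/-503 libraries, with points for libraries, bars for mean ± SD and axes that start at 0. Pdlim3 moves from about 25.6 to 157 CPM, the groups of Actn2, Pdlim5, Ldb3, Myoz1 and Myoz2 do not overlap either, and Tcap is the gene whose libraries are all lower with miR-322/-503.

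Actn2 encodes alpha-actinin-2, the crosslinker of actin filaments in the Z-disc of heart and all skeletal fibres. It lies at chr13:12269426-12340760 on the minus strand (GRCm38). Actn2 was at 2.11, 1.67 and 1.43 CPM in control replicates 1 to 3 and at 2.96, 3.25 and 3.22 CPM in miR-322/-503 replicates 1 to 3. The 3 miR-322/-503 libraries were thus above all control libraries. The mean rose from 1.74 ± 0.341 to 3.14 ± 0.161 CPM (SD, n = 3) and the log2 fold change was 0.86 ± 0.19 (SE). The counts behind it were small, between 121 and 282 estimated counts per library.

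The level of Actn2 is best read beside its paralogs. Actn3, the alpha-actinin of fast fibres, made up 99.0% ± 0.182 of the TPM of the pair Actn2 and Actn3 in the control and 99.0% ± 0.0298 in the miR-322/-503 group (SD, n = 3). Actn2 therefore held 0.982% ± 0.182 and 1.01% ± 0.0298 of the sarcomeric alpha-actinin TPM, a difference within the spread of the control libraries. Actn3 itself was called higher, from 171 ± 11.3 to 295 ± 11 CPM, with a log2 fold change of 0.79 ± 0.070. The non-muscle paralog Actn1 was called lower with -0.59 ± 0.062, and Actn4 was not called at -0.19 ± 0.068. Among all 4 alpha-actinins the share of Actn1 went from 33.0% ± 3.33 to 22.7% ± 1.21 of TPM and that of Actn3 from 19.6% ± 1.24 to 33.7% ± 1.25, with no overlap between groups. The summed TPM of the 4 genes was 577 ± 29.0 in the control and 571 ± 41.4 with miR-322/-503, which overlapped.

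The PDZ-LIM scaffolds Pdlim3, Pdlim5 and Ldb3 bind alpha-actinin through their PDZ domain. Pdlim3, also known as ALP, lies at chr8:45885461-45919548 on the plus strand. Pdlim3 was at 25.1, 27.0 and 24.8 CPM in control replicates 1 to 3 and at 158, 158 and 155 CPM in miR-322/-503 replicates 1 to 3. The spread within each group was small beside the distance between the groups. The mean rose from 25.6 ± 1.17 to 157 ± 1.68 CPM (SD, n = 3), which is 6.13-fold with a log2 fold change of 2.62 ± 0.058. Over all alternatives run, the log2 fold change of Pdlim3 stayed between 2.44 and 2.65.

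Pdlim5, also known as ENH, lies at chr3:142239590-142395696 on the minus strand. Pdlim5 was at 112, 109 and 115 CPM in the control and at 128, 128 and 134 CPM with miR-322/-503. The groups did not overlap, but the change was only 16.2%, with a log2 fold change of 0.22 ± 0.053. The call of Pdlim5 was lost when control replicate 1, control replicate 2, miR-322/-503 replicate 2 or miR-322/-503 replicate 3 was left out, with log2 fold changes between 0.19 and 0.24 over all libraries left out in turn. It was also lost with limma on TPM of the genes that passed the filter.

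Ldb3, also known as ZASP or Cypher, lies at chr14:34526603-34588682 on the minus strand. Ldb3 was at 66.1, 64.3 and 66.9 CPM in the control and at 77.5, 77.7 and 78.5 CPM with miR-322/-503. As for Pdlim5 the rise was small and the groups did not overlap, with a change of 18.4% and a log2 fold change of 0.24 ± 0.048. Its call was kept when any of the 6 libraries was left out, but not with limma on log2(TPM + 0.1) or, without a filter, on log2(TPM + 1). On the log2(TPM + 1) scale its difference was larger, 0.40.

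Within the 7 PDZ-LIM genes, Pdlim3 held 4.91% ± 0.447 of the TPM in the control and 20.8% ± 0.391 in the miR-322/-503 group (SD, n = 3). The share of Pdlim2 went the other way, from 26.8% ± 0.378 to 14.0% ± 0.965. Ldb3 kept 7.17% ± 1.14 and 7.19% ± 0.222, and Pdlim5 10.2% ± 0.930 and 9.24% ± 0.635, both with overlapping groups. Of the paralogs, Pdlim1 was called higher with a log2 fold change of 0.98 ± 0.076 and Pdlim2 was called lower with -0.52 ± 0.066. Pdlim4 and Pdlim7, at 0.26 ± 0.10 and 0.14 ± 0.072, were not called. With edgeR, Pdlim3 was the only one of the 7 whose log2 fold change was past 1.

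**Figure D2:**
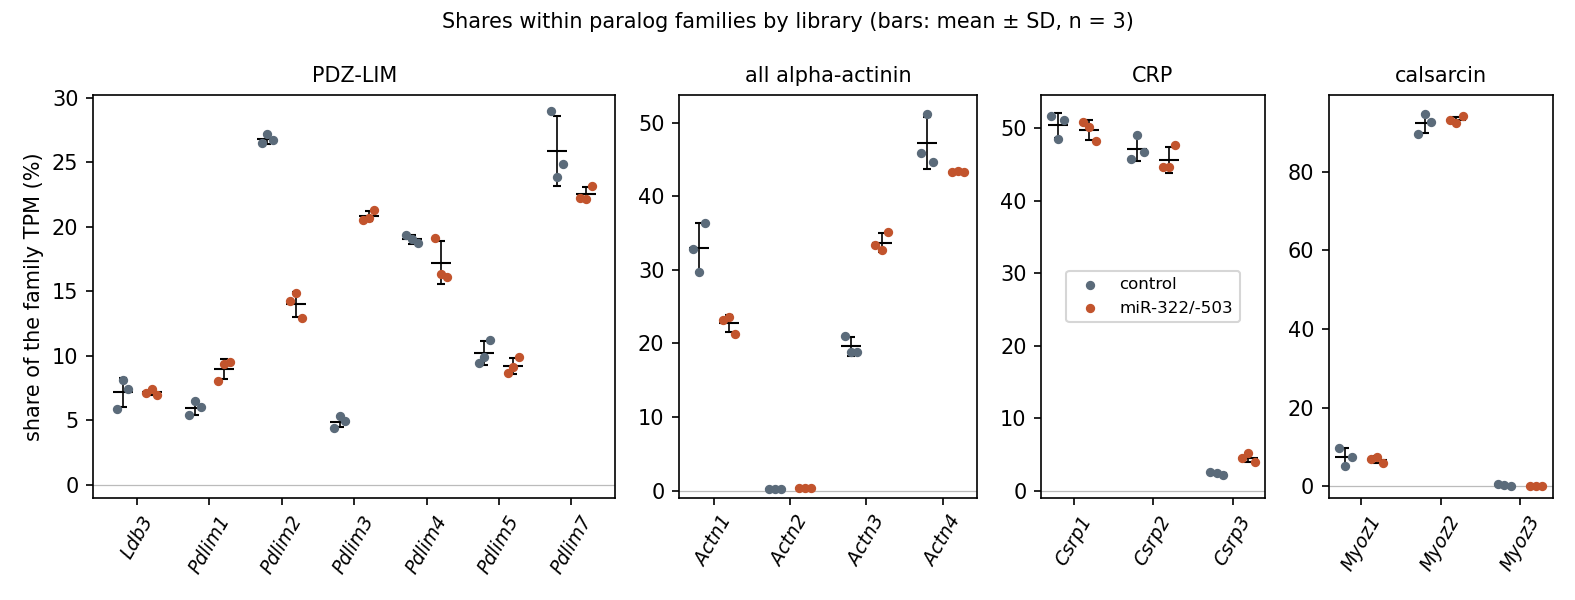
Share of the TPM of each paralog family in percent, by library, for the PDZ-LIM genes, all alpha-actinins, the CRP genes and the calsarcins, with points for libraries and bars for mean ± SD. Pdlim3 moves from 4.91% to 20.8% of the PDZ-LIM family and Actn3 from 19.6% to 33.7% of the alpha-actinins, while Myoz2 stays above 89% of the calsarcins in all libraries.

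The calsarcins Myoz1 and Myoz2 tie calcineurin, a calcium-dependent phosphatase, to alpha-actinin. Myoz2, the calsarcin of heart and slow fibres, lies at chr3:123006206-123035015 on the minus strand. Myoz2 was at 5.78, 7.33 and 7.06 CPM in the control and at 15.0, 16.9 and 20.1 CPM with miR-322/-503. The lowest miR-322/-503 library was above the highest control library by a wide margin. The mean rose from 6.72 ± 0.829 to 17.3 ± 2.62 CPM, 2.58-fold, with a log2 fold change of 1.37 ± 0.15. It was called higher under all 15 alternatives.

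Myoz1, the calsarcin of fast fibres, lies at chr14:20649107-20656540 on the minus strand. Myoz1 was at 0.594, 0.206 and 0.332 CPM in the control and at 0.860, 0.867 and 1.17 CPM with miR-322/-503, which were 46, 17 and 28 against 82, 65 and 88 estimated counts. The groups did not overlap and the log2 fold change of 1.35 ± 0.42 was close to that of Myoz2, but its error was far larger. The call of Myoz1 was lost without control replicate 2, control replicate 3 or any of the 3 miR-322/-503 replicates, with values between 1.06 and 1.44, and kept without control replicate 1, at 1.84. The call was also lost without a filter on low counts and, at 1.45, when the replicate number was added to the model. The gene had an implied mean transcript length between 521 and 1019 bases, below the 1289 bases of its only protein-coding transcript. Myoz2 held 92.3% ± 2.47 of the calsarcin TPM in the control and 93.2% ± 0.768 with miR-322/-503, and Myoz1 7.48% ± 2.30 and 6.75% ± 0.809. Both genes thus kept their order while the family summed to 13.2 ± 1.56 TPM in the control and 32.7 ± 3.27 TPM with miR-322/-503. Myoz3, the remaining calsarcin, had too few counts to be tested. The calcineurin subunit genes Ppp3ca, Ppp3cb and Ppp3r1 and the calcineurin regulator Rcan1 had log2 fold changes between -0.06 and 0.28, and each of the 4 had overlapping groups.

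Nexn encodes nexilin, an actin-binding protein, and lies at chr3:152236982-152266350 on the minus strand. Nexn was at 79.5, 80.0 and 99.0 CPM in the control and at 79.9, 78.9 and 90.8 CPM with miR-322/-503. In each group the replicate numbered 3 was the highest, and the groups overlapped throughout. The log2 fold change was -0.050 ± 0.10, and without control replicate 3 it turned to 0.060, so no direction can be given. The gene overlaps Gm43185, a gene model of the annotation on the same strand with at most 228 counts, against at least 5919 for Nexn.

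Myot encodes myotilin, an immunoglobulin-domain protein that binds alpha-actinin and filamin, and lies on chromosome 18. Myot was at the edge of detection, with counts of 40, 23 and 9 in the control and of 4, 20 and 0 with miR-322/-503. Beside a floor of 12 counts, which stand for 3 read pairs, 3 of the 6 libraries were at or under it. The log2 fold change was -1.55 ± 1.14 and no change was detectable at this depth. Without control replicate 1 the value was -0.91 and without miR-322/-503 replicate 2 it was -3.65, and on the log2(TPM + 1) scale it was -0.20. The palladin family paralog Palld was called lower with -0.43 ± 0.051, and Mypn was not called at 0.34 ± 0.21.

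Tcap encodes telethonin, the cap of titin's amino-terminal end, and lies at chr11:98383811-98384953 on the plus strand. Tcap was at 0.685, 0.715 and 0.592 CPM in the control and at 0.336, 0.427 and 0.186 CPM with miR-322/-503, which were 53, 59 and 50 against 32, 32 and 14 estimated counts. All miR-322/-503 libraries were below all control libraries. The log2 fold change was -1.07 ± 0.39 without a call. It was called lower with at least 10 counts required in every library, with counts per read pair and with limma on log2(TPM + 1). Tcap was the only gene of the 10 that stood lower in each miR-322/-503 library than in each control library.

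Csrp3 encodes muscle LIM protein, which binds alpha-actinin and telethonin, and lies at chr7:48830398-48848033 on the minus strand. Csrp3 was at 7.53, 8.02 and 6.47 CPM in the control and at 8.35, 9.87 and 7.57 CPM with miR-322/-503. The groups overlapped and the log2 fold change of 0.23 ± 0.14 was not called. It was 0.12 without miR-322/-503 replicate 2 and 0.14 without control replicate 3. Its paralogs Csrp1 and Csrp2, which are found outside striated muscle too, were both called lower, with -0.65 ± 0.058 and -0.66 ± 0.082. The share of Csrp3 in the CRP family accordingly went from 2.38% ± 0.167 to 4.54% ± 0.602 of TPM without overlap, while the summed TPM of the family was 606 ± 42.5 in the control and 386 ± 12.3 with miR-322/-503.

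Levels can be compared between genes only per length, in TPM. In the control the order was Nexn with 88.0 ± 12.4, Pdlim5 with 58.2 ± 2.11, Ldb3 with 40.8 ± 4.88, Pdlim3 with 28.0 ± 1.74, Csrp3 with 14.5 ± 1.64, Myoz2 with 12.2 ± 1.74, Tcap with 1.32 ± 0.131, Actn2 with 1.13 ± 0.284, Myoz1 with 0.966 ± 0.196 and Myot with 0.254 ± 0.183 TPM (SD, n = 3). Csrp3 and Myoz2, Tcap and Actn2, and Actn2 and Myoz1 overlapped in the control and cannot be ordered. In the miR-322/-503 group Pdlim3 came first with 156 ± 5.93 TPM, before Nexn with 83.6 ± 4.56, Pdlim5 with 69.1 ± 1.52, Ldb3 with 53.9 ± 4.18, Myoz2 with 30.5 ± 3.19, Csrp3 with 17.5 ± 2.89, Myoz1 with 2.20 ± 0.253, Actn2 with 1.97 ± 0.135, Tcap with 0.628 ± 0.262 and Myot with 0.0862 ± 0.119 TPM. Here Myoz1 and Actn2 were the only neighbours that overlapped. Pdlim3 thus went from the fourth to the first place, Myoz2 stood above Csrp3 without overlap, and Tcap stood below Actn2 and Myoz1. Among all genes with counts, Pdlim3 went from the 81.4th to the 96.9th percentile of mean TPM, whereas Nexn was at 93.9 and 93.7.

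The 10 genes together summed to 245 ± 12.8 TPM in the control and 416 ± 6.76 TPM with miR-322/-503. Of this difference in summed level, 75.2% came from Pdlim3 alone. Without Pdlim3 the sums were 205, 215 and 231 TPM in the control and 255, 264 and 260 TPM with miR-322/-503, so the other 9 genes also summed to more in each miR-322/-503 library. The low genes Tcap, Actn2, Myoz1 and Myot hardly entered these sums.

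Mean transcript length was derived from the ratio of count to TPM, after scaling on genes with a single annotated transcript, of which between 98.5% and 98.8% came within 5% of their annotated length. In DM1 the splicing factors of the MBNL family are held by CUG repeats, and LDB3 and PDLIM3 are known as transcripts that are then spliced differently, which is why the lengths of these genes are given. Pdlim3 had a mean length of 1766, 1695 and 1749 bases in the control and of 1900, 1901 and 1856 bases with miR-322/-503. The groups did not overlap, and all 6 values were above the longest protein-coding transcript of 1604 bases and below the retained-intron transcript of 3537 bases. Ldb3 had 3488, 2637 and 3159 bases against 2684, 2607 and 2852 bases, with overlapping groups and a wide spread in the control. Csrp3 went from 965 ± 7.10 to 921 ± 14.2 bases (SD, n = 3) without overlap. All 6 of its values were above its longest protein-coding transcript of 899 bases and below its retained-intron transcript of 2433 bases. The groups did not overlap in 2 of the 9 genes with a length in each library, against 13.3% of 17114 genes. Myot had no length in miR-322/-503 replicate 3 and was left out of this count. A mean length does not tell which exons were used.

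**Figure D3:**
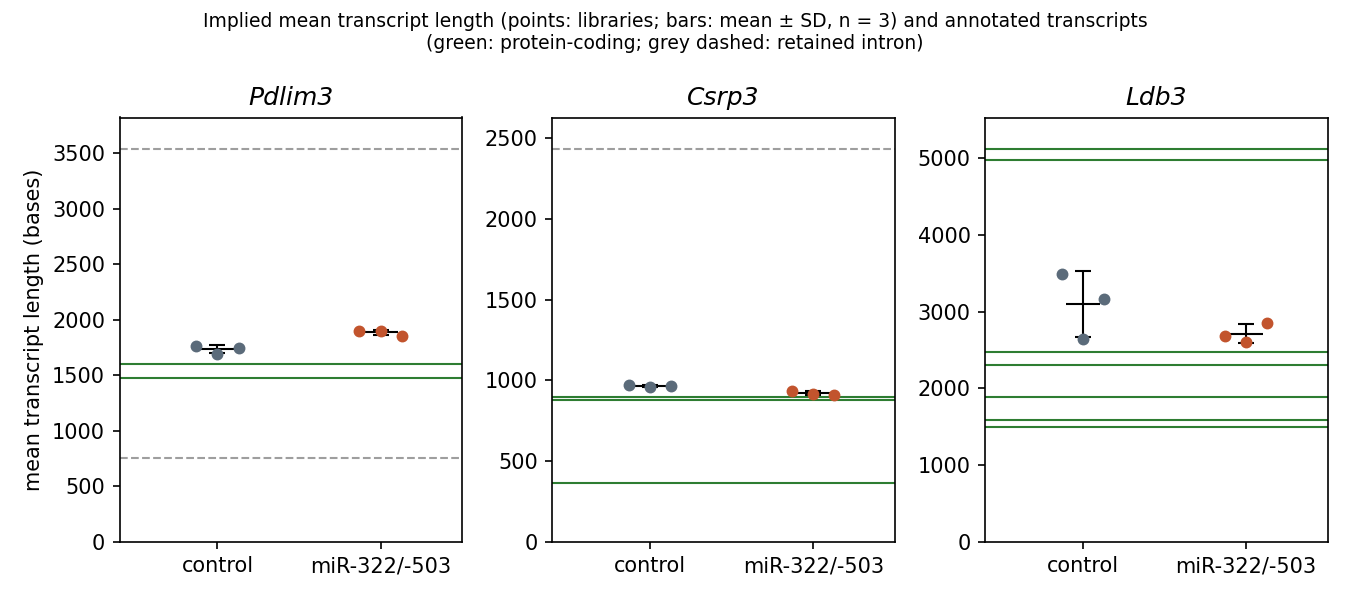
Implied mean transcript length in bases of Pdlim3, Csrp3 and Ldb3 by library, with points for libraries, bars for mean ± SD, green lines for annotated protein-coding transcripts and dashed grey lines for retained-intron transcripts (a fragment of Ldb3 of 17 bases is not drawn). Pdlim3 is longer in all miR-322/-503 libraries (1856 to 1901 bases) than in the control (1695 to 1766 bases), whereas the Ldb3 groups overlap.

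Promoters, here the 250 bases before and 50 bases after the transcription start in RefSeq (GRCm38.p6), were found for 6 of the 10 genes, Pdlim3, Pdlim5, Ldb3, Actn2, Myoz2 and Csrp3, with 9 promoters in all. They were searched on both strands for 4 motifs known from muscle promoters, the E-box CANNTG of myogenic bHLH factors, the MCAT motif CATTCC of TEAD factors, the MEF2 box and the CArG box of SRF. Of the promoters, 5 are printed in transcript direction because they carry the motifs of the genes described above, with motifs in capitals.
Pdlim3 promoter, chr8:45885237-45885536, plus strand: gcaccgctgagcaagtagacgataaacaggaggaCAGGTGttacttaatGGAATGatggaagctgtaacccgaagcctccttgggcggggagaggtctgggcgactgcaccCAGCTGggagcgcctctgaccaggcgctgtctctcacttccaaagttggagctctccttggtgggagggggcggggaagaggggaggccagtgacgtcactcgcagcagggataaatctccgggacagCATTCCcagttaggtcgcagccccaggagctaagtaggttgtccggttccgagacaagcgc
Myoz2 promoter, chr3:123034938-123035237, minus strand: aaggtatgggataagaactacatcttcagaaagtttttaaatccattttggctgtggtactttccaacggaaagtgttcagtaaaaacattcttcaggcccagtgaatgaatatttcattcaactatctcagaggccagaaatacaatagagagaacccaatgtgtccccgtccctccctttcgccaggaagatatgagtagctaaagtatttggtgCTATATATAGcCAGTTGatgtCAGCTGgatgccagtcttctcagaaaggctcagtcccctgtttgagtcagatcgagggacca
Actn2 promoter, chr13:12340683-12340982, minus strand: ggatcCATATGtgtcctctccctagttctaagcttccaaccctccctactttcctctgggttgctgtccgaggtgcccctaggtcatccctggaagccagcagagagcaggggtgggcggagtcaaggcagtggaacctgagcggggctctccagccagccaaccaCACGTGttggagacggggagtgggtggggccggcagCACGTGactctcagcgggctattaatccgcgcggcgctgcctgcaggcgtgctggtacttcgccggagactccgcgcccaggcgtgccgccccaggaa
Ldb3 promoter, chr14:34588632-34588931, minus strand: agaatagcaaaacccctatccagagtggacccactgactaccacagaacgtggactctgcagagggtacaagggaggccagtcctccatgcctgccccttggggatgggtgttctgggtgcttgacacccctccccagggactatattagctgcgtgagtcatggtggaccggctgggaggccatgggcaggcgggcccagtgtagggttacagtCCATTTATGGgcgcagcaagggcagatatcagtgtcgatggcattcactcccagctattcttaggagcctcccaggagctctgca
Csrp3 promoter, chr7:48848002-48848301, minus strand: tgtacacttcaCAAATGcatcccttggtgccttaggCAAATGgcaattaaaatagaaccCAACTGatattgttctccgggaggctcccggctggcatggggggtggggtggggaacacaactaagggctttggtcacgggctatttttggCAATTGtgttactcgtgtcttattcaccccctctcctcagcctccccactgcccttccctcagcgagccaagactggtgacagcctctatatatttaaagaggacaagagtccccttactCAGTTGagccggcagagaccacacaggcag
The E-box is common, with a match in 72.3% of 32841 promoters of the same length, and was found in 6 of the 9 promoters here, which belong to 5 genes. The Pdlim3 promoter alone held the MCAT motif, at -201 to -196 on the opposite strand and at -11 to -6 on the transcript's own strand, counted from the start, a motif found in 14.7% of all promoters. The Myoz2 promoter alone held a MEF2 box, at -33 to -24, which 3.19% of all promoters have, followed by E-boxes at -22 to -17 and -12 to -7. The letters of this box also hold TATATA. Ldb3 alone held a CArG box, at -35 to -26, which 1.63% of all promoters have, and both of its listed promoters overlap and share this box. Actn2 had 3 E-boxes and Csrp3 had 5 in the first and 4 in the second of its promoters. In the printed promoters the matches of different motifs did not overlap each other. A match is a run of letters and not a bound site, and binding was not measured in these libraries.

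Muscle transcription factors and cofactors were counted from a list of 23 genes, of which 22 were tested. The list holds factors of the 4 motifs and also others, such as the NFAT genes, whose motifs were not searched. In the miR-322/-503 group 8 were called higher, or 5 with limma on TPM, and 5 lower, beside 13.2% and 15.5% of all genes. Mef2c, a MEF2 factor of differentiating muscle, was at 2.49, 1.61 and 1.60 CPM in the control and at 20.8, 22.3 and 26.8 CPM with miR-322/-503, a log2 fold change of 3.61 ± 0.21. Vgll2, a muscle cofactor of TEAD proteins, was at most 0.261 CPM in the control and reached 23.6 to 31.9 CPM, a log2 fold change of 7.13 ± 0.29. Tead2 was called higher with 1.04 ± 0.12. The largest called falls were those of the calcineurin-responsive NFAT factors Nfatc2 with -2.41 ± 0.33 and Nfatc4 with -1.18 ± 0.18 and of the TEAD cofactor Vgll3 with -0.83 ± 0.071. Of the 4 NFAT genes 3 were called lower, and each of the 3 tested MEF2 genes was called higher. The 4 myogenic bHLH genes, which bind E-boxes and are named here after their values were seen, were divided. Myog was called lower with -0.74 ± 0.086, Myod1 and Myf5 were called higher with 0.37 ± 0.10 and 0.35 ± 0.057, and Myf6 was not called.

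Beyond the 10 genes, a list of 47 other Z-disc and Z-disc-associated genes was counted, 46 of them tested. Of these 15 were called higher and 10 lower, beside 13.2% and 15.5% of all genes, 21 had no call, and the median log2 fold change was 0.15. Trim55, a ubiquitin ligase of the titin region, had the largest rise among genes of at least 1 CPM, from 11.0 to 11.7 CPM in the control to between 40.7 and 43.3 CPM, a log2 fold change of 1.88 ± 0.074. Nrap, a scaffold of growing myofibrils, followed with 1.16 ± 0.084. With the paralogs described above left aside, among them Pdlim1 and Actn3, the next were Trim54 with 0.70 ± 0.14 and the stretch-responsive Ankrd2 with 0.66 ± 0.13. The 4 rises past 1 were those of Trim55, Nrap and, both under 1 CPM and named after their values were seen, Nebl and Mlip, of which Mlip was at 0 counts in each control library.

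The falls of the same list were led by Synm, a large intermediate filament protein that links desmin to the Z-disc, from 14.5 to 14.8 CPM in the control to between 1.91 and 2.85 CPM, a log2 fold change of -2.66 ± 0.16. Among the called genes, Lmcd1, a LIM protein, followed with -1.80 ± 0.080 and Fhl2 with -0.82 ± 0.076. The next called fall, with the paralogs Csrp2, Csrp1, Actn1 and Pdlim2 left aside, was that of the actin-binding Xirp1 with -0.46 ± 0.066. Synpo2, named after its values were seen, had -1.73 ± 0.69 without a call and with overlapping groups. Among the 10 genes themselves Pdlim3 and Myoz2 rose, Nexn stayed within its spread and Tcap was lower without a call. The plot of fold changes sets these groups side by side.

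**Figure D4:**
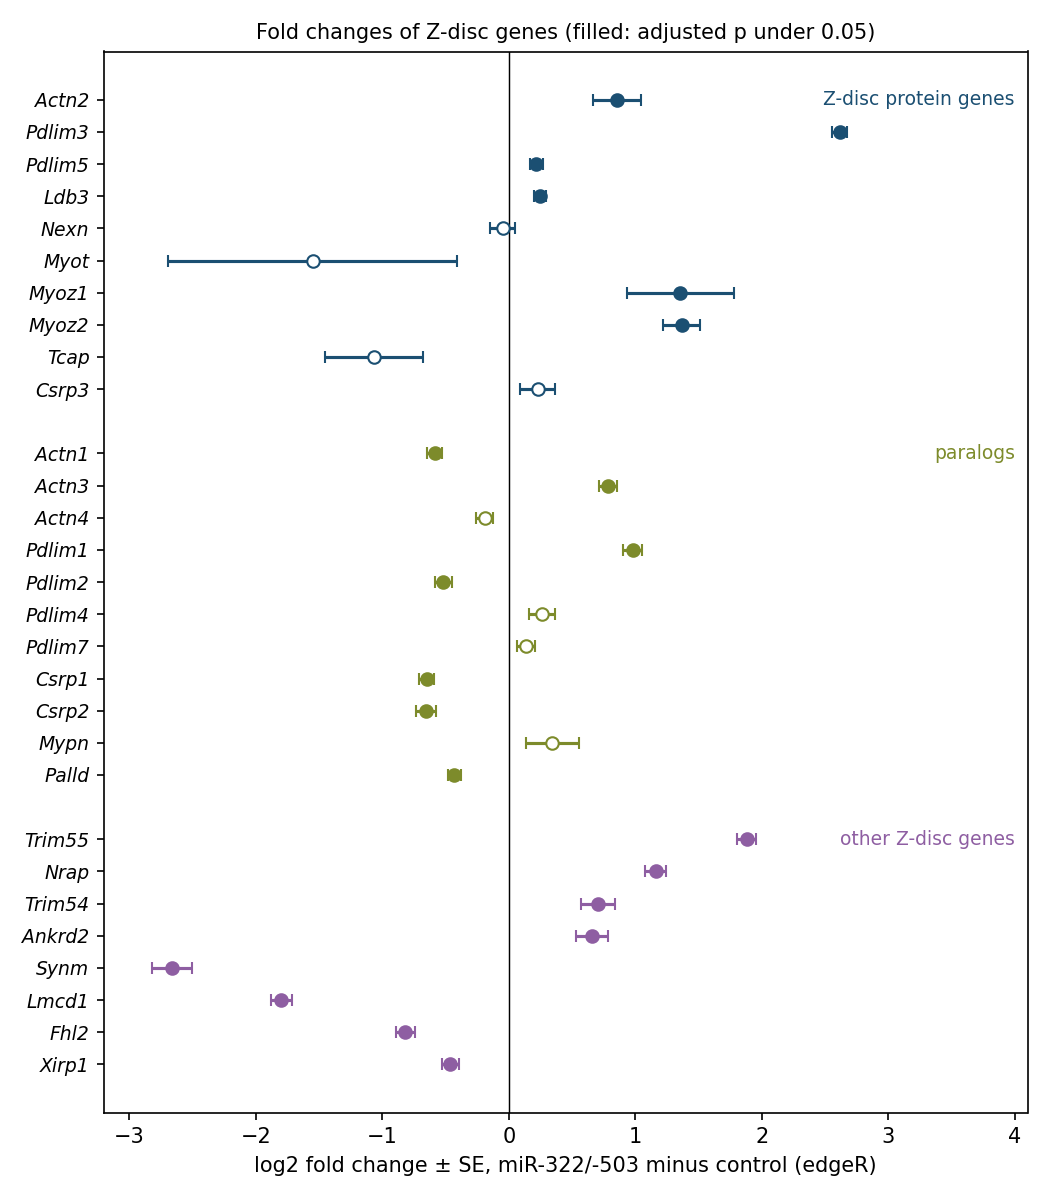
Log2 fold change ± SE (edgeR, miR-322/-503 minus control, 3 libraries each) of the 10 Z-disc protein genes, their paralogs and those other Z-disc genes of at least 1 CPM with the largest called rises and falls, with filled points for an adjusted p under 0.05. Among the genes drawn Pdlim3 at 2.62 lies farthest to the right and Synm at -2.66 farthest to the left, and Myot carries the widest error of 1.14.

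Neighbouring genes on the chromosomes were described from the same comparison. The 20 nearest tested genes around each of the 10 had median log2 fold changes between -0.13 at Myoz2 and 0.35 at Actn2. Around Pdlim3 the median was 0.0054, with quartiles of -0.44 and 0.62.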

How the data were processed

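Per the submitters' processing notes and the study's methods, reads went through Trim Galore and HISAT2 (mouse build GRCm38), and StringTie gave the tables, with versions and gene annotation not given in the sources used here. The authors deposited estimated counts per gene, unnormalized, and per library a coverage signal, FPKM and TPM per gene. FPKM was not needed. About 75 covered bases stood for 1 count and 300 for a read pair, so counts overstate precision. Intervals of counting error were not used. Estimated counts, whole as deposited, were tested in edgeR 4.0.16 (filterByExpr, TMM, glmQLFit, glmQLFTest, Benjamini-Hochberg over 18140 genes) in R 4.3.3, without covariates. The study's methods used DESeq2, run here as version 1.42.0 as an alternative, with limma 3.58.1 on log2(TPM + 1). Transcript lengths, positions and 3′UTRs came from GENCODE M21, which held 55154 of 55421 gene identifiers. Members and gene lists were chosen with earlier results of these data known. Genes named are the 10 members, their paralogs and the 4 largest called rises and falls of the other Z-disc list outside these paralogs. Of the factors 3 of each were named, and both lists were held to 1 CPM or more. Outside this rule stand the calcineurin genes, single markers, and genes marked as named after their values were seen. Total counts per library were 73532084 to 92157388, and each replicate pair differed by more than sampling noise.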

Additional observations from a re-analysis of the deposited data

How the results depend on the processing

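All 15 alternatives left the calls and directions of Pdlim3, Myoz2, Actn2 and Csrp3 as given. The call of Myoz1 was also lost without a filter on low counts, that of Pdlim5 with limma on log2(TPM + 1) and log2(TPM + 0.1), and that of Ldb3 with limma on log2(TPM + 0.1) and on log2(TPM + 1) without a filter. Nexn ranged from -0.12 to 0.060 on the log2 scale when each library was left out in turn, and reversed only without control replicate 3. The count of the 10 genes called lower went from 0 to 1, Tcap, with at least 10 counts in every library, with counts per read pair and with limma on log2(TPM + 1). Muscle factors called higher numbered 5 in each of the limma fits, against 8. In shares of counts in place of TPM, with miR-322/-503, Actn2 held 1.05% of sarcomeric alpha-actinin, Pdlim3 21.3% of PDZ-LIM and Myoz2 94.6% of calsarcins, and Csrp3 held 1.72% of the CRP family in the control and 3.13% with miR-322/-503. With 6 bases of the seed, 4 genes had a match for either microRNA, since a shorter match is found more often. Limma on log2(TPM + 1) gave smaller log2 fold changes for low genes, as its pseudocount implies, with 0.49 for Actn2, 0.70 for Myoz1 and -0.52 for Tcap. The causes of the other changes were not tested. Same-numbered libraries had correlations of their deviations of 0.131, 0.0687 and 0.0451, and each of the 6 libraries correlated best with its own number. No label ties the numbers to a shared source, so the main test did not take them as pairs. Whether same-numbered libraries shared a batch was not tested. With the replicate number as a block, 5733 genes were called in place of 5218, 5 of the 10 genes were called higher, and Myoz1 (1.45) was no longer called. Depth limits Myot, Tcap and Myoz1, which had at most 88 counts in any library.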
